A study of Mus musculus with 24 samples.

Results

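The renin-angiotensin system was followed in mouse kidney through 9 genes: Ren1, Agt, Ace, Agtr1a, Agtr1b, Mas1, Enpep, Mme and Atp6ap2. They were taken by symbol, by a rule that uses no measured value, from the 53392 genes listed in the deposited files. The list itself was chosen with earlier results of these data known. Of these 9 genes, 8 had enough reads to be tested, and Agtr1b did not.

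The libraries are poly-A RNA from the inbred mouse strain FVB, after ischemic acute kidney injury (IRI) or a sham procedure labelled as no injury. Endothelial cells (endo) were collected with CD31 microbeads from digested kidney, and proximal tubules (PTs) were collected by microdissection. The endothelial groups were injured males (n = 3), sham males (n = 3), injured females (n = 3) and sham females (n = 2), and the tubule groups were the same 4 with n = 3 each. The labels describe RNA from 3 male and 3 female mice per condition, and p-values measure the spread between these libraries. The animals' age and the time after injury are not given in the sources used here.

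Renin, released by juxtaglomerular cells of the kidney, cuts angiotensinogen to angiotensin I, and angiotensin-converting enzyme (ACE) turns this into angiotensin II. Angiotensin II constricts vessels and raises sodium reabsorption through its type 1 receptor, which mice encode in a pair of genes, Agtr1a and Agtr1b. Aminopeptidase A and neprilysin trim the peptides further, and some of the products act on the Mas receptor, which is known for actions opposed to those of angiotensin II. In the kidney the brush border of the proximal tubule carries ACE, aminopeptidase A and neprilysin, and the tubule also makes angiotensinogen.

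The promoters of Ren1 and Ace are shown because renin starts the cascade and Ace differed between males and females in both sham and injured tubules. RefSeq promoter windows (GRCm38.p6, 250 bases before to 50 bases after a start site, 5′ to 3′ on the gene's strand) were found for 8 of the 9 genes, in 11 windows. Ace has a window at each of 2 starts: the upstream start of the long somatic form, and an internal start of the short form known from the testis. Capitals mark TATAAA, the core of the TATA box, or its reverse complement TTTATA.
Ren1, chr1:133350424-133350723, plus strand: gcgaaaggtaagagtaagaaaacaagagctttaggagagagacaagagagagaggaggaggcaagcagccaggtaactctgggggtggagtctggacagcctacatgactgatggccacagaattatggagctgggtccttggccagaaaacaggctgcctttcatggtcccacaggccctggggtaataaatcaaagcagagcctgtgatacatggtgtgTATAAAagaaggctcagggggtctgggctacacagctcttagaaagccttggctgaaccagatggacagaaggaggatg
Ace upstream start, chr11:105967698-105967997, plus strand: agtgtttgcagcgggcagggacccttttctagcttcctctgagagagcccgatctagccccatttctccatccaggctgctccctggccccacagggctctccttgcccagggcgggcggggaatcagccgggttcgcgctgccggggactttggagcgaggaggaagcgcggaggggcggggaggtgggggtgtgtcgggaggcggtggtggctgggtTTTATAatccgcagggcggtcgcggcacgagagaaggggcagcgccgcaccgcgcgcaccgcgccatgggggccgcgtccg
Ace internal start, chr11:105974939-105975238, plus strand: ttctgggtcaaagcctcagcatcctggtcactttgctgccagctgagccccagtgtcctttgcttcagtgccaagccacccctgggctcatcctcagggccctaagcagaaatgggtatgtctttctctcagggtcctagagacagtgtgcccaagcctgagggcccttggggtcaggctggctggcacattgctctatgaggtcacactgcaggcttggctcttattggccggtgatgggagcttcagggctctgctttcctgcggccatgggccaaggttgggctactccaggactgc
The match lies 29 bases before the start of Ren1 and 31 bases before the upstream start of Ace, and the internal Ace window holds none. Of the 8 genes, 5 had TATAAA on either strand in a window, and 13.6% of all 32851 promoter windows of this length had it. The letters AGAACA or TGTTCT, a half-site of the androgen receptor, were in a window of 1 gene, Atp6ap2, and in 19.0% of all windows. A gene with several windows has more chances to match, so the counts per gene and shares per window are not alike.

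The 23 libraries held 32592452 to 54906864 estimated reads. Sham male tubule replicate 3, the sum of a pair of sequencing libraries of 1 sample, stood apart with 86.82% of reads in protein-coding genes, against 91.71 to 94.25% in the other tubule libraries. Injured male tubule replicate 3 also stood apart from replicates 1 and 2 in several of the genes below. Fits without this library are given below. It was singled out through those values, so calls gained without it are no independent support. Marker genes showed that neither isolation was pure. The summed level of 11 endothelial markers, led by Pecam1, Cdh5 and Kdr, was 460 to 1990 CPM (reads scaled to a common library total) in endothelial isolates and 158 to 446 CPM in tubules. The 12 proximal tubule markers, led by Slc34a1, Lrp2 and Slc5a12, summed to 6300 to 22000 CPM in endothelial isolates and to 9810 to 23000 CPM in tubules. The sums of the thick ascending limb and distal tubule markers (7920 to 15500 CPM) and of the podocyte markers (725 to 1760 CPM) in endothelial isolates also lay above those in tubules (1600 to 7630 and 33.1 to 458 CPM). In injured male tubules the distal sum was 2190 CPM in replicate 3 and 5650 and 5710 CPM in the other libraries. A level in an endothelial isolate is therefore a level in a mixture, and fewer cells of a type cannot be told apart from less RNA per cell.

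**Figure D1:**
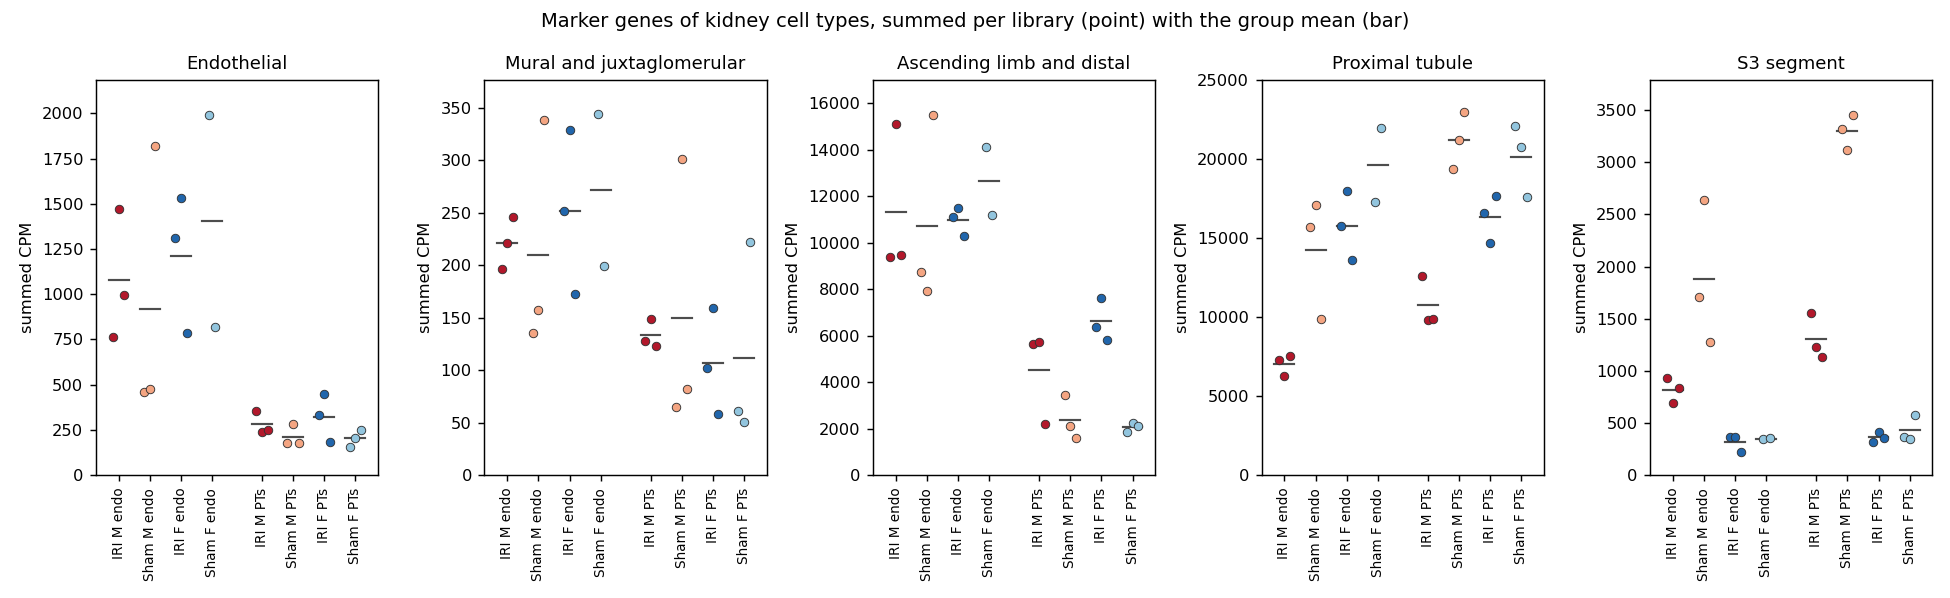
Summed CPM (y axis, from 0) of marker genes of 5 kidney cell types in each library (points) and the group mean (bars), with the endothelial groups left and the tubule groups right. Endothelial markers are higher in endothelial isolates, proximal tubule markers are high in both isolations, and S3 markers are higher in male than in female groups.

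Levels of different genes were compared as TPM, the transcript share scaled to a fixed total, which takes transcript length into account, over all libraries of an isolation. Enpep, the gene of aminopeptidase A, and Atp6ap2, the gene of the (pro)renin receptor and an accessory protein of the vacuolar proton pump, were the most abundant. Enpep averaged 43.6 TPM (range 32.5 to 67.7, n = 11) in endothelial isolates and 29.4 TPM (11.2 to 41.3, n = 12) in tubules. Atp6ap2 averaged 37.1 TPM (32.7 to 42.1) in endothelial isolates and 33.7 TPM (24.4 to 44.9) in tubules. A middle tier followed, with ranges that overlapped between neighbours. In endothelial isolates Agtr1a averaged 23.1 TPM, Mme 18.8 TPM, Ace 11.4 TPM, Agt 8.7 TPM and Ren1 7.18 TPM. In tubules Ace averaged 18.3 TPM, Agtr1a 14.6 TPM, Ren1 12.7 TPM, Mme 11.8 TPM and Agt 7.41 TPM. Mas1 was scarce, at 0.432 TPM in endothelial isolates and 0.664 TPM in tubules. Agtr1b was at the edge of detection, with 0 to 10 reads in any library and a highest level of 0.058 TPM.

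**Figure D2:**
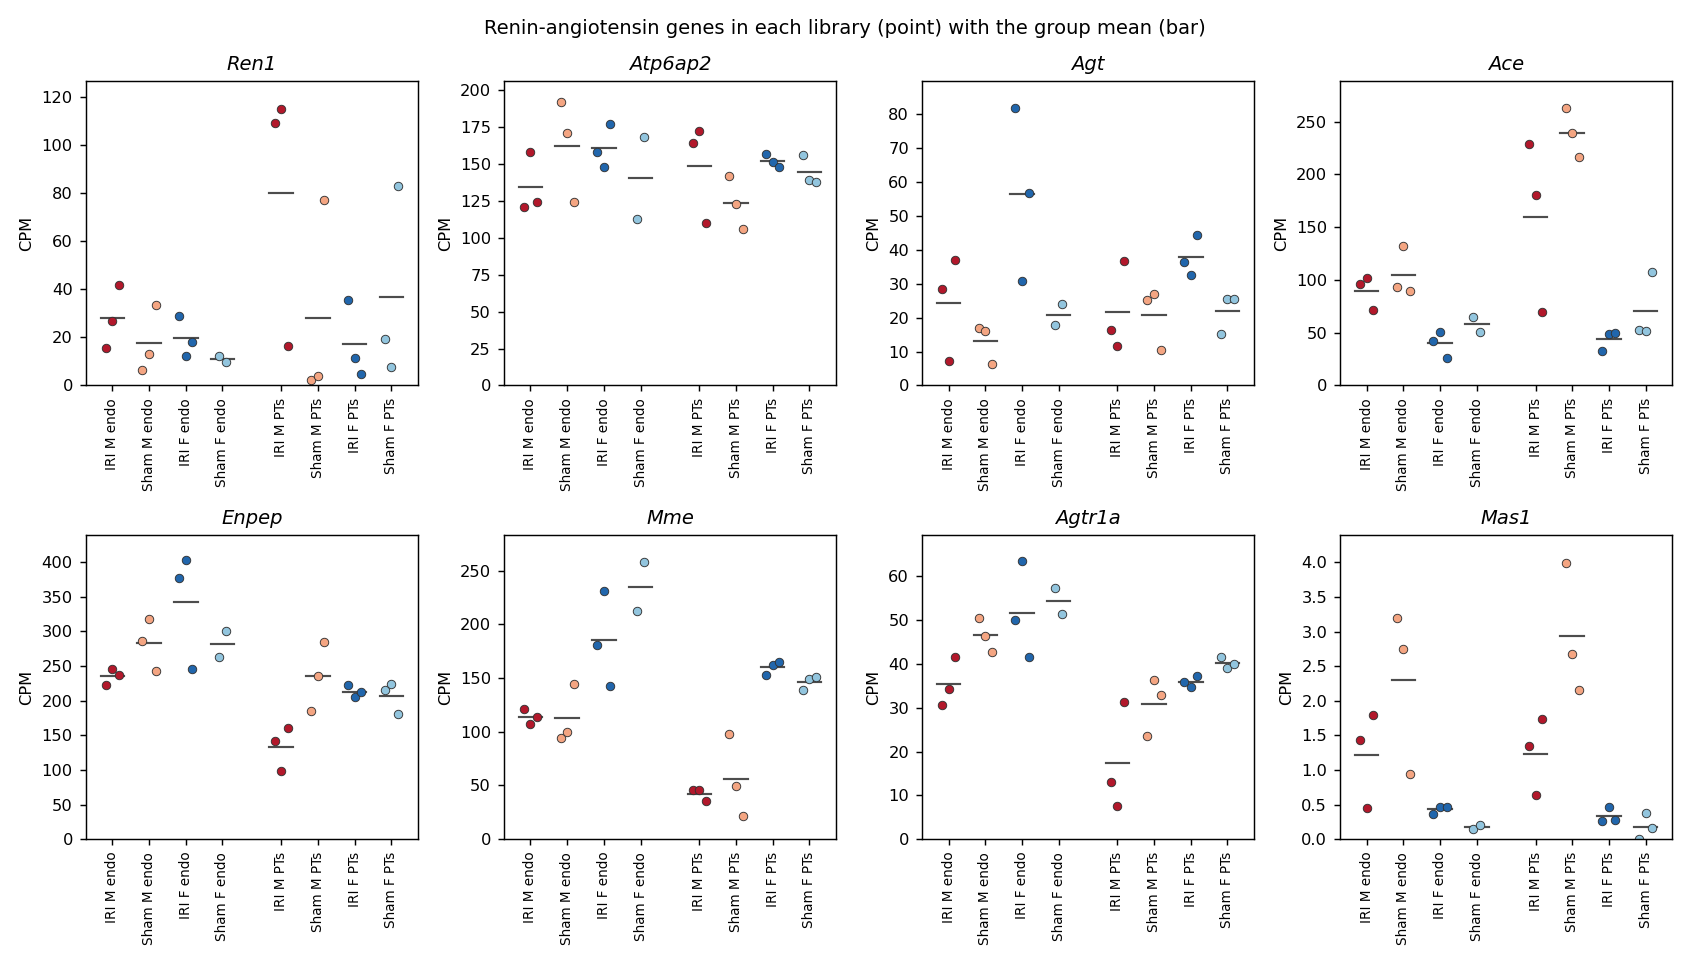
CPM (y axes, from 0, scaled within each isolation) of the 8 tested genes in each library (points) and the group mean (bars). On average Ace and Mas1 are higher and Mme is lower in males than in females in both isolations, Enpep is low in injured male tubules, and Ren1 varies widely within groups.

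In tubules members were called between the sexes in sham and in injured mice, and for injury in males only. A gene without a call is not shown to be unchanged. A gene is called here at an adjusted p under 0.05 (edgeR quasi-likelihood test, Benjamini-Hochberg adjustment over all 18369 genes tested in tubules). In sham tubules Ace and Mas1 were higher in males and 0 members were lower, which is 2 of 8 tested genes, against 5.80% of all genes (3.24% higher and 2.56% lower). In injured tubules Ace was higher and Enpep and Mme were lower in males, which is 3 of 8 genes, against 23.3% of all genes (12.8% higher and 10.5% lower), so calls were common among all genes there. Injury lowered Enpep in males, 1 of 8 genes, against 19.0% of all genes (10.6% higher and 8.43% lower). In females injury gave 0 calls among the 8 genes and 0.0109% among all genes, with 0 members at an unadjusted p under 0.05 and 0 called by DESeq2. Over all genes, 2032 of 18369 were at an unadjusted p under 0.05, and DESeq2 called 698 of 17604.

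Ren1, which encodes renin (chromosome 1, 133350510 to 133360325, plus strand), varied widely between libraries of a group. Its tubule levels were 109, 115 and 16.6 CPM in injured males and 2.44, 3.98 and 77.2 CPM in sham males. They were 35.6, 11.6 and 4.78 CPM in injured females and 19.5, 7.51 and 83 CPM in sham females. A pair of injured male libraries and a single library in each sham group were high, and all 4 groups overlapped. The highest tubule library held 46.9 times as much Ren1 as the lowest, a wider span than that of 98.7% of 10061 protein-coding genes at 5 CPM or more on average. The injury change was 1.52 ± 1.29 (log2 ± SE) in males, with an adjusted p of 0.43 in edgeR's test, and -1.08 ± 1.28 in females, with an adjusted p of 0.89. In endothelial isolates Ren1 was narrower, at 15.7, 27 and 41.8 CPM in injured males and 6.4, 13.1 and 33.5 CPM in sham males. It was 29, 12.4 and 18.1 CPM in injured females, against 12.2 and 9.88 CPM in sham females, and no comparison of sex or injury was called.

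Akr1b7, known as a gene of renin-producing juxtaglomerular cells in mice, was highest in 3 of the 4 tubule libraries with the most Ren1. It stood at 2.67, 3.5 and 0.576 CPM in injured male tubules and at 0.559, 0.643 and 0.961 CPM in sham male tubules. In females it stood at 0.997, 0.551 and 0.557 CPM in injured tubules and at 0.495, 0.663 and 2.2 CPM in sham tubules. The whole mural, mesangial and juxtaglomerular list of 11 genes summed to 123 to 149 CPM in injured males, 65.1 to 301 CPM in sham males, 58.5 to 159 CPM in injured females and 51 to 222 CPM in sham females. Library by library the list did not follow Ren1: its highest sum, 301 CPM, was in sham male replicate 2, with 3.98 CPM of Ren1, and sham male replicate 3, with 77.2 CPM of Ren1, summed to 81.9 CPM. With the score of this list as a covariate, the injury change of Ren1 was 0.41 ± 1.48 in male tubules (edgeR adjusted p = 0.88) and -0.76 ± 1.24 in female tubules (adjusted p = 0.96). Akr1b7 was picked from the list after its values were seen, and its own part was not tested. Some mouse strains carry a second, nearly identical renin gene, Ren2; whether any of these reads came from such a gene was not tested.

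Atp6ap2 (chromosome X, 12587801 to 12617049, plus strand) was the steadiest of the genes. It ran from 113 to 192 CPM in endothelial isolates and from 106 to 172 CPM in tubules, with a highest-to-lowest ratio of 1.7 in endothelial isolates and 1.63 in tubules, and 14.2% and 16.6% of protein-coding genes had a smaller ratio. The groups overlapped in each comparison of sex or injury, and its log2 changes in those comparisons lay between -0.27 and 0.27. Without injured male tubule replicate 3, the injury change of Atp6ap2 in male tubules was 0.44 ± 0.12 and called (edgeR adjusted p = 0.011). That setting called 8203 of 19309 genes for injury in males.

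Agt, which encodes angiotensinogen, the substrate of renin (chromosome 8, 124556534 to 124569706, minus strand), was highest in injured females in both isolations. In tubules it stood at 36.5, 32.5 and 44.5 CPM in injured females and at 15.2, 25.4 and 25.5 CPM in sham females. The injured and sham female tubules did not overlap, but the change of 0.78 ± 0.43 had an adjusted p of 0.58 (edgeR). In males the tubule values were 16.4, 11.5 and 36.7 CPM after injury and 25.1, 26.9 and 10.4 CPM after sham, which overlapped, with the highest value in replicate 3 of the injured group. Without that library Agt in injured tubules was lower in males than in females (-1.44 ± 0.38, edgeR adjusted p = 0.010), against -0.81 ± 0.43 (adjusted p = 0.19) with it, and its injury change in males was -0.58 ± 0.37 without and 0.05 ± 0.43 with it, called in neither. With the distal marker score as a covariate and all libraries kept, Agt was also lower in males after injury (-2.66 ± 0.66, edgeR adjusted p = 0.0093), and its sex by injury term was called (-1.99 ± 0.59, adjusted p = 0.027). The score is the mean log2 CPM of the distal markers, and its limits are given with Agtr1a below. It called 6799 of 18369 genes for sex after injury and 5405 for sex by injury. Leaving out injured male replicate 3 called 8522 of 19309 genes for sex after injury.
In endothelial isolates Agt stood at 81.7, 30.9 and 56.6 CPM in injured females, against 17.8 and 23.9 CPM in sham females, again without overlap (1.44 ± 0.66, adjusted p = 1 in edgeR's test). Injured males had 28.5, 7.27 and 36.9 CPM, against 16.8, 16.2 and 6.25 CPM in sham males, and these overlapped (0.89 ± 0.56, adjusted p = 0.49 in edgeR's test).

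Ace, the gene of angiotensin-converting enzyme (chromosome 11, 105967945 to 105989964, plus strand), was higher in male than in female tubules, in both sham and injured mice. It stood at 263, 239 and 217 CPM in sham males and at 52.2, 51.7 and 108 CPM in sham females. Each male library lay above each female library, and the difference was 1.76 ± 0.40 with an adjusted p of 0.025 (edgeR). After injury Ace stood at 229, 181 and 69.7 CPM in males and at 32.9, 49.1 and 50 CPM in females. Replicate 3 of the injured males was far below replicates 1 and 2 yet above each injured female, and the difference was 1.86 ± 0.40 (edgeR adjusted p = 0.0092).
The sex by injury term of Ace was 0.10 ± 0.55 and not called (edgeR adjusted p = 0.94). The injury change of Ace was -0.59 ± 0.39 in males and -0.68 ± 0.39 in females, and neither passed the test. In sham tubules the call was lost, with adjusted p up to 0.11, when replicate 1 or 2 of either sex was left out, and with the replicate number as a block (adjusted p = 0.056), while the log2 difference stayed at 1.59 or more. In injured tubules it was called in 22 of 22 alternative analyses, with log2 differences of 1.51 to 3.20.

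In endothelial isolates the Ace means of males also lay above those of females, without a call. Ace stood at 96.2, 102 and 71.3 CPM in injured males and at 42.3, 51.1 and 26.5 CPM in injured females. In sham isolates it stood at 93.8, 132 and 89.2 CPM in males and at 64.8 and 51 CPM in females. The male and female libraries did not overlap in either condition, and the edgeR differences of 1.17 ± 0.28 (adjusted p = 0.072) after injury and 0.86 ± 0.31 (adjusted p = 0.54) after sham were not called.

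The 6 markers of the S3 segment, the last part of the proximal tubule, also summed to more in males, and some of them are known as male-biased genes in mice. Led by Slc7a13, Cyp7b1 and Slc22a7, they summed to 3120 to 3450 CPM in male and 344 to 578 CPM in female sham tubules, and to 1130 to 1560 CPM in male and 316 to 414 CPM in female injured tubules. In sham tubules 3 of the 6 were higher in males (Slc7a13, Cyp7b1 and Atp11a), and after injury 2 were higher and 2 lower. Their part in the Ace difference was not tested. By correlation of log2 CPM over the 12 tubule libraries, the protein-coding genes most like Ace were Gm853 (r = 0.962), Tent5a (r = 0.958) and Cndp2 (r = 0.957), a description over libraries that share sex and injury groups.

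**Figure D3:**
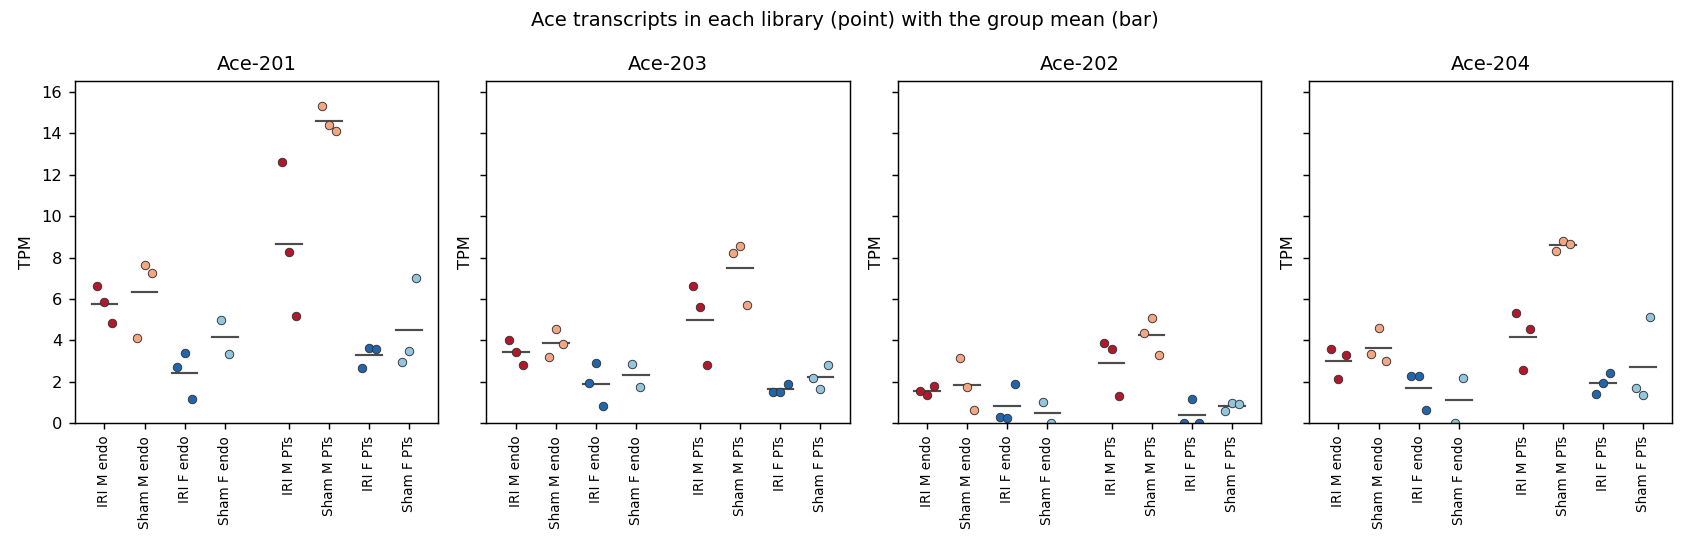
TPM (y axes, from 0, one scale) of the 4 listed Ace transcripts in each library (points) and the group mean (bars). All 4 transcripts are higher on average in male than in female groups of the same isolation and condition.

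The male excess of Ace was seen in each of its 4 listed transcripts. Ace-201, the 4906-base transcript that begins at the upstream start shown above, took 64% of Ace reads in sham male and 65.2% in sham female tubules. Its level was 14.6 ± 0.632 TPM in sham male and 4.49 ± 2.2 TPM in sham female tubules (SD, n = 3 each). Ace-202, the 2418-base transcript that begins 19 bases after the internal start, was at 4.26 ± 0.9 TPM in sham male and 0.837 ± 0.2 TPM in sham female tubules.
Libraries of the sexes did not overlap in these sham values. After injury Ace-202 stood at 2.93 ± 1.4 TPM in male and 0.398 ± 0.689 TPM in female tubules, where 1 male library and 1 female library lay close together. Reads shared by the transcripts were divided by the authors' quantifier, so the short form's level is an estimate, and no test was made on transcripts.

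Enpep, which encodes aminopeptidase A, the enzyme that trims angiotensin II to angiotensin III (chromosome 3, 129269175 to 129332720, minus strand), fell in injured male tubules. It stood at 142, 97.9 and 161 CPM in injured males and at 185, 236 and 285 CPM in sham males. All 3 injured male libraries lay below all sham male libraries, and the change was -0.82 ± 0.20 with an adjusted p of 0.019 (edgeR). In females Enpep stood at 222, 205 and 212 CPM after injury and at 215, 224 and 180 CPM after sham, which overlapped (0.04 ± 0.20, edgeR adjusted p = 0.99).
Injured males were also below injured females (-0.67 ± 0.20, edgeR adjusted p = 0.031), again with no overlap. The sex by injury term for Enpep was -0.86 ± 0.28, with an unadjusted p of 0.0095 and an adjusted p of 0.14 in edgeR's test, so a difference between the sexes in the injury response was not called. The call in males was lost, with adjusted p up to 0.071, when replicate 1 or 2 of the injured or replicate 2 or 3 of the sham group was left out, and reached an adjusted p of 0.14 when those groups were fitted alone. The call between the sexes after injury held in 13 of 22 alternative analyses. Without injured male replicate 3, the sex by injury term was called (-1.02 ± 0.26, edgeR adjusted p = 0.011), as it was with the distal marker score as a covariate and all libraries kept (-1.24 ± 0.32, adjusted p = 0.014). Over all genes this term was called for 5892 of 19309 in the first setting and 5405 of 18369 with the score.
Of the 12 proximal tubule markers, 8 also fell after injury in males and 0 were called in females. They summed to 9810 to 12600 CPM in injured and 19400 to 23000 CPM in sham male tubules, and to 14700 to 17700 CPM in injured and 17600 to 22100 CPM in sham female tubules. Their part in the Enpep change was not tested.

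In endothelial isolates Enpep stood at 223, 246 and 237 CPM in injured males and 286, 318 and 243 CPM in sham males. It stood at 377, 403 and 245 CPM in injured females and 263 and 300 CPM in sham females. These groups overlapped within each sex, and no endothelial comparison of Enpep was called.

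Mme, which encodes neprilysin, a membrane peptidase that cleaves angiotensins, natriuretic peptides and other small peptides (chromosome 3, 63241537 to 63386030, plus strand), was lower in males than in females after injury. In injured tubules it stood at 46, 45.8 and 35.5 CPM in males and at 153, 162 and 165 CPM in females. The groups were far apart, with a difference of -1.91 ± 0.39 and an adjusted p of 0.0071 (edgeR). In sham tubules it stood at 97.5, 49.1 and 21.5 CPM in males and at 139, 149 and 151 CPM in females. The sham males were spread widely but all lay below the females, and the difference of -1.38 ± 0.39 missed the threshold (edgeR adjusted p = 0.061). It passed in 6 of 22 alternative analyses, DESeq2 among them (adjusted p = 0.0067).
The injury change of Mme was -0.40 ± 0.38 in males and 0.13 ± 0.38 in females, and neither was called. With the distal marker score as a covariate, the injured difference was -1.24 ± 0.75 and no longer called (edgeR adjusted p = 0.23).
In endothelial isolates Mme stood at 121, 107 and 114 CPM in injured males and at 181, 231 and 143 CPM in injured females. In sham isolates it stood at 94.4, 99.8 and 144 CPM in males and at 212 and 258 CPM in females. Males lay below females in both conditions without overlap, at -0.70 ± 0.24 after injury (edgeR adjusted p = 0.21) and -1.06 ± 0.26 after sham (adjusted p = 0.17). The gene most like Mme over the 11 endothelial libraries was Mgat4a (r = 0.976).

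Agtr1a, the gene of the main angiotensin II receptor in mouse kidney (chromosome 13, 30336441 to 30382867, plus strand), was lowest in a pair of injured male tubule libraries. It stood at 13, 7.68 and 31.4 CPM in injured males and at 23.5, 36.3 and 33 CPM in sham males. Replicates 1 and 2 of the injured males lay below all sham males and replicate 3 lay among them, and the change of -0.83 ± 0.38 was not called (edgeR adjusted p = 0.14). In females Agtr1a was nearly constant, at 35.8, 34.7 and 37.3 CPM after injury and 41.5, 39.1 and 40 CPM after sham; the injured libraries all lay below the sham ones, by -0.16 ± 0.38 (edgeR adjusted p = 0.97).
Injured males lay below injured females without overlap (-1.05 ± 0.39, edgeR adjusted p = 0.070). Without injured male replicate 3, the library named above as standing apart, the same difference was -1.80 ± 0.23 (edgeR adjusted p = 7.9e-05), the injury change in males was -1.58 ± 0.23 (adjusted p = 2e-04) and the sex by injury term was -1.42 ± 0.29 (adjusted p = 0.0037). All 3 were then called. Replicate 3 was singled out partly by its Agtr1a value, so the smaller spread and the calls without it follow in part from that choice. Of all 19309 genes, 8522 were then called for sex after injury, 8203 for injury in males and 5892 for sex by injury. Injured male replicate 3 also held the lowest distal tubule marker sum of its group. With all libraries kept and the distal marker score as a covariate, the same 3 values of Agtr1a were also called: -3.29 ± 0.34 between the sexes after injury (edgeR adjusted p = 0.00027), -0.88 ± 0.16 for injury in males (adjusted p = 0.0027) and -2.22 ± 0.30 for the sex by injury term (adjusted p = 0.0012). The sham difference between the sexes was then -1.06 ± 0.18 and called (edgeR adjusted p = 0.0041), and the injury change in females was 1.34 ± 0.26, opposite in sign to that without the score and not called (adjusted p = 0.054). With this score 6799 of 18369 genes were called for sex after injury and 2508 for sex in sham tubules. It called 5240 for injury in males and 5405 for the sex by injury term. Distal sums of injured and sham females did not overlap (5830 to 7630 and 1850 to 2250 CPM). This fit therefore cannot tell distal content from injury in females. Replicate 3 had the lowest distal sum of the injured males, so this fit is also no separate check on leaving it out.
In endothelial isolates Agtr1a stood at 30.6, 34.3 and 41.6 CPM in injured males and 50.4, 46.3 and 42.8 CPM in sham males, with no overlap (-0.39 ± 0.21, edgeR adjusted p = 0.41). It stood at 50.1, 63.4 and 41.7 CPM in injured females and at 57.3 and 51.5 CPM in sham females.

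Agtr1b, the second type 1 receptor gene (chromosome 3, 20314473 to 20367177, minus strand), had 10, 0 and 2 reads in injured male tubules, 0 to 2 reads in each other tubule library and 0 to 5 reads in each endothelial library. It was too low to test. Agtr1a and Agtr1b have nearly identical coding sequences, so a few of these reads may have been divided between them.

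Mas1, which encodes the Mas receptor (chromosome 17, 12841079 to 12868143, minus strand), was scarce, and higher in males than in females in sham tubules. In sham tubules it stood at 3.99, 2.67 and 2.15 CPM in males, from 157, 112 and 85 reads, and at 0, 0.379 and 0.165 CPM in females, from 0, 16 and 6 reads. The sexes were well apart, with a difference of 3.96 ± 0.86 and an adjusted p of 0.020 (edgeR). In injured tubules it stood at 1.34, 0.642 and 1.73 CPM in males and at 0.265, 0.463 and 0.279 CPM in females. Males were again above females in all libraries, but the difference of 1.88 ± 0.79 was not called (edgeR adjusted p = 0.10).
Injured males lay below sham males without overlap (-1.24 ± 0.75, edgeR adjusted p = 0.26), and injured females overlapped sham females (0.84 ± 0.82, adjusted p = 0.84). The sex by injury term was -2.08 ± 1.11 (edgeR adjusted p = 0.31). The sham call was lost, with adjusted p up to 0.078, when male replicate 1 or 2 or female replicate 3 was left out.

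The endothelial isolates held Mas1 at 1.43, 0.448 and 1.79 CPM in injured males and 0.368, 0.469 and 0.472 CPM in injured females, which overlapped at the lowest male library. In sham isolates it stood at 3.19, 2.75 and 0.939 CPM in males and 0.15 and 0.201 CPM in females, without overlap. The sham difference of 3.70 ± 0.79 was not called (edgeR adjusted p = 0.089), and DESeq2 gave it an adjusted p of 0.00017.

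Airn, a long RNA of the imprinted cluster beside Mas1, is transcribed across Mas1 from the opposite strand (chromosome 17, 12741311 to 12860136), and whether counting used the strand is not given in the sources used here. Reads of unspliced Airn could not be told apart from Mas1. Airn stood at 4.35, 5.07 and 4.07 CPM in male and 2.07, 1.9 and 3.24 CPM in female sham tubules, a difference of 0.90 ± 0.34 (edgeR adjusted p = 0.17), and was not called. In males it was lower after injury, at 1.39, 1.57 and 1.82 CPM in injured tubules, against the sham values above (-1.49 ± 0.35, edgeR adjusted p = 0.016), and its part in the Mas1 values was not tested. Over the 12 tubule libraries the genes most like Mas1 were Vps37a (r = 0.95), Slc6a9 (r = 0.943) and Cep295 (r = 0.937).

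**Figure D4:**
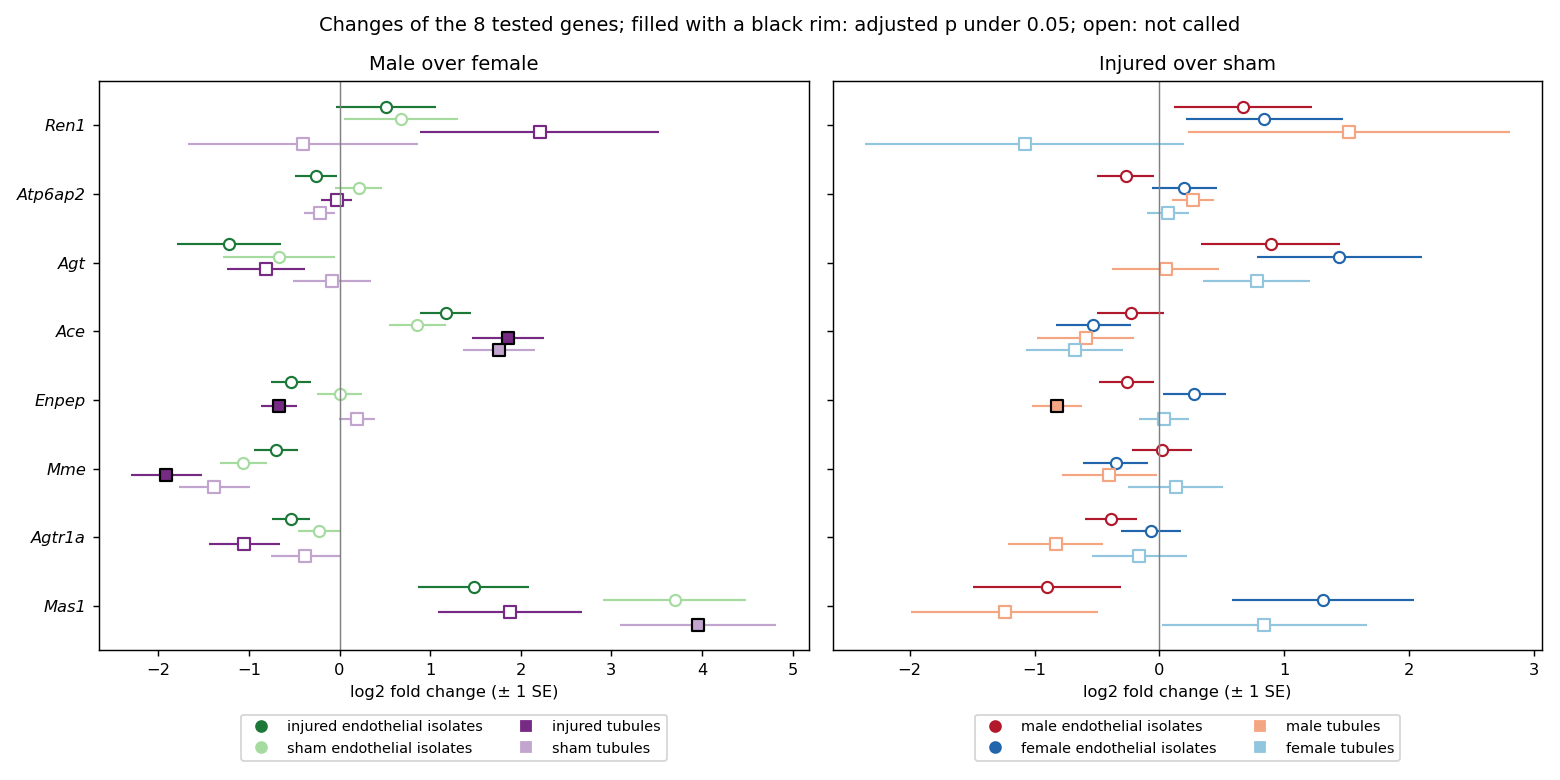
Log2 fold changes (x axis, points) with 1 SE either way (lines) of the 8 tested genes, male over female at left and injured over sham at right, in endothelial isolates (circles) and tubules (squares). Filled symbols with a black rim are called at an adjusted p under 0.05: Ace in both tubule conditions, Mas1 in sham tubules, Enpep and Mme in injured tubules, and Enpep for injury in male tubules.

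In endothelial isolates 0 of the 8 genes were called by edgeR in any comparison of sex or injury. The share of all 19910 genes called was 0.864% for injury in males (0.537% higher and 0.326% lower) and 0% for injury in females. Between the sexes it was 0.432% in sham (0.276% higher and 0.156% lower) and 1.50% after injury (0.663% higher and 0.834% lower). At an unadjusted p under 0.05, 3 genes differed between the sexes in sham isolates (Ace, Mas1 and Mme) and 5 after injury (Ace, Agtr1a, Mas1, Enpep and Mme). Of all 19910 genes, 1355 did so in sham isolates and 2920 after injury. DESeq2 called 2 of these members in sham isolates (388 of 19763 genes) and 1 after injury (1177 of 16684 genes). For injury, 0 members were at an unadjusted p under 0.05 in either sex, against 3029 of 19910 genes in males and 475 in females. DESeq2 called 0 members for injury, against 1217 of 18220 genes in males and 33 of 19763 in females.
The sex by injury terms gave 0 calls among members in both isolations, with 1 member at an unadjusted p under 0.05 in each, Enpep in tubules and Mas1 in endothelial isolates, and 0 called by DESeq2. The share of all genes called was 0.855% in tubules (0.381% higher and 0.474% lower) and 0% in endothelial isolates. At an unadjusted p under 0.05 were 3669 of 18369 genes in tubules and 1294 of 19910 in endothelial isolates. DESeq2 called 1535 of 14057 genes in tubules and 62 of 19763 in endothelial isolates.

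Between the isolations, Ace was lower in endothelial isolates than in tubules of sham mice, 1 of 8 genes, against 12.3% of all 21206 genes (10.4% higher and 1.86% lower). It averaged 81.42 ± 29.4 CPM in endothelial isolates (SD, n = 5) and 162 ± 103 CPM in tubules (SD, n = 6), scaled over both isolations, and the ranges overlapped (-0.87 ± 0.27, edgeR adjusted p = 0.041). On this scale sham males stood at 84.8 to 125 CPM in endothelial isolates and 223 to 277 CPM in tubules. Sham females overlapped, at 62.4 and 47.3 CPM in endothelial isolates and 52.4, 52.8 and 109 CPM in tubules. After injury Enpep was higher in endothelial isolates, 1 of 8 genes, against 4.69% of all genes (3.90% higher and 0.797% lower). It averaged 273.6 ± 75.5 CPM in endothelial isolates and 184.2 ± 47 CPM in tubules (SD, n = 6 each; 0.61 ± 0.15, edgeR adjusted p = 0.022), again with overlap. Ace was called in 19 of 30 alternative analyses, with adjusted p up to 0.13, and Enpep in 23 of 30, with adjusted p up to 0.091. With the number in the sample titles, which endothelial and tubule libraries share, as a block, neither was called (edgeR adjusted p = 0.094 for Ace and 0.051 for Enpep). Neprilysin and aminopeptidase A are also known from podocytes, whose 7 markers summed to 725 to 1760 CPM in endothelial isolates and to at most 458 CPM in any tubule library; their part in these values was not tested. Ren1 was not called between the isolations, at -1.30 ± 0.83 in sham (edgeR adjusted p = 0.37) and -0.79 ± 0.76 after injury (adjusted p = 0.70). The isolation by injury term gave 0 calls among members and 0% among all genes, with 0 members at an unadjusted p under 0.05 and 0 called by DESeq2. Of all 21206 genes, 1011 were at an unadjusted p under 0.05.

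A further 19 genes of enzymes and receptors that make, break down or bind angiotensins were read beside the members, 13 of them tested in tubules and 14 in endothelial isolates. In male tubules 2 of 13 were higher after injury and 0 were lower, against 10.6% higher and 8.43% lower among all genes, with a median log2 change of -0.22 over the list and -0.03 over all genes. These were Prep, which encodes prolyl endopeptidase, at 46.55 ± 6.63 CPM in injured and 31.39 ± 2.92 CPM in sham males (SD, n = 3 each; 0.57 ± 0.15, edgeR adjusted p = 0.028), and Klk1, which encodes tissue kallikrein. Klk1 stood at 1322 ± 925 CPM in injured and 472.2 ± 153 CPM in sham males (1.49 ± 0.44, edgeR adjusted p = 0.038), with overlap, and was called in 9 of 22 alternative analyses. Klk1 is known as a gene of the distal tubule, whose markers summed to 2190 to 5710 CPM in injured and 1600 to 3450 CPM in sham male tubules. Of the 7 markers, 1 was called higher and 1 lower after injury in males, with a median log2 change of -0.22. The distal marker score is the mean log2 CPM of the markers, not their sum. With it as a covariate the change of Klk1 was 1.09 ± 0.22 and called (edgeR adjusted p = 0.0049), among 5240 of 18369 genes.
In sham tubules 1 of the 13 genes differed between the sexes, against 5.80% of all genes: Anpep, which encodes aminopeptidase N, the enzyme after aminopeptidase A, at 239.6 ± 28.9 CPM in males and 133.2 ± 21.8 CPM in females (0.85 ± 0.18, edgeR adjusted p = 0.020). Between isolations Mep1b, a subunit of the brush-border metalloprotease meprin, was lower in endothelial isolates in sham mice (-2.31 ± 0.49, edgeR adjusted p = 0.0037) and after injury (-2.03 ± 0.45, adjusted p = 0.015), and the other 13 genes of the list were not called. The rest of the sex, injury and interaction comparisons called 0 genes of this list.

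A list of 16 regulators of angiotensin receptors and genes of aldosterone action, or known to respond to angiotensin II, was tested in full in both isolations. In male tubules 5 of 16 were higher after injury and 2 were lower, against 10.6% higher and 8.43% lower among all genes, with a median of 0.72 over the list and -0.03 over all genes. Neutrophil markers moved with this comparison, at summed levels of 3.63 to 30.5 CPM in injured and 0.322 to 1.23 CPM in sham male tubules, and their part in the list's values was not tested. Edn1, which encodes the vasoconstrictor endothelin 1, stood at 7.381 ± 4.09 CPM in injured and 1.345 ± 0.229 CPM in sham males (SD, n = 3 each; 2.45 ± 0.48, edgeR adjusted p = 0.0084). Rgs2, a brake on receptor-coupled G proteins, rose by 2.33 ± 0.55, the receptor adaptor gene Arap1 by 1.44 ± 0.35 and the growth factor gene Tgfb1 by 1.80 ± 0.49, with adjusted p of 0.018, 0.019 and 0.028 in edgeR's test.
Agtrap and Mtus1, which encode proteins that bind angiotensin II receptors, were lower. Agtrap stood at 61.88 ± 29.1 CPM in injured and 116.2 ± 5.35 CPM in sham males (-0.91 ± 0.25, edgeR adjusted p = 0.029), and Mtus1 changed by -1.13 ± 0.31 (adjusted p = 0.030). Of 22 alternative analyses, Agtrap and Mtus1 were called in 14 each, with adjusted p up to 0.16 for Agtrap and 0.15 for Mtus1. Tgfb1 was called in 15, Arap1 and Prep in 16, Rgs2 in 17 and Edn1 in 21. In female tubules 0 of the 16 passed, although the list's median change was 0.92, against 0 over all genes. Collecting duct markers, with Hsd11b2 of this list among them, summed to 758 to 1010 CPM in injured and 77 to 217 CPM in sham female tubules. Distal tubule markers summed to 5830 to 7630 CPM in injured and 1850 to 2250 CPM in sham female tubules. The part of such cells in the list's median was not tested.
In injured tubules, Edn1 (2.07 ± 0.47) and, with overlapping groups, Arap1 (1.33 ± 0.35) were higher in males, and Nr3c2 and Hsd11b2 were lower, 4 of 16, against 23.3% of all genes. Nr3c2, the gene of the mineralocorticoid receptor, stood at 7.3 ± 1.6 CPM in males and 23.7 ± 3.48 CPM in females (SD, n = 3 each; -1.70 ± 0.26, edgeR adjusted p = 0.0018). Hsd11b2, the gene of the enzyme that shields this receptor from glucocorticoids, differed by -2.05 ± 0.64 (edgeR adjusted p = 0.041) and was called in 10 of 22 alternative analyses. Both are known from the distal nephron and collecting duct, and the 7 collecting duct markers, Hsd11b2 among them, summed to 315 to 402 CPM in male and 758 to 1010 CPM in female injured tubules; their own part in these differences was not tested. With the distal marker score as a covariate Nr3c2 was called (-1.78 ± 0.54, edgeR adjusted p = 0.024) and Hsd11b2 was not (-2.80 ± 1.33, adjusted p = 0.13). The score called 6799 of 18369 genes in that comparison.
Between isolations 9 of the 16 genes were higher in endothelial isolates of sham mice and 0 were lower. Among all genes 10.4% were higher and 1.86% lower. The median was 1.07 over the list and 0 over all genes. The 9 included Tgfb1 (2.53 ± 0.37), Ctgf (3.10 ± 0.70), Edn1, Nr3c2, Scnn1a and Hsd11b2. Of these, Nr3c2 and Hsd11b2 are named above as known from the distal nephron and collecting duct. Distal tubule markers summed to 7920 to 15500 CPM in sham endothelial isolates and 1600 to 3450 CPM in sham tubules. The part of distal content in the list's values was not tested. After injury Tgfb1 was higher (1.34 ± 0.35) and no other was called. The remaining comparisons called 0 genes of this list.

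For the members, each called difference between the sexes or by injury had the same sign in the authors' deposited tables as in the edgeR values. In the authors' deposited table for sham tubules, Ace had a log2 fold change of 1.65 (adjusted p = 0.00033), Mas1 4.01 (adjusted p = 0.00012) and Mme -1.23 (adjusted p = 0.0021), male over female. In the authors' deposited table for injured tubules, Mme had -1.7 (adjusted p = 8.2e-06), Ace 1.7 (adjusted p = 0.00013), Agtr1a -0.93 (adjusted p = 0.033) and Enpep -0.58 (adjusted p = 0.045). In the authors' deposited tables for endothelial isolates, Ace had 0.95 after injury (adjusted p = 0.0055) and 0.86 after sham (adjusted p = 0.043), male over female, while Mas1 had 3.68 (adjusted p = 5.3e-05) and Mme -1.13 (adjusted p = 0.021) after sham. For injury in male tubules, the authors' deposited table gave Enpep -0.75 (adjusted p = 0.0072) and Agtr1a -0.86 (adjusted p = 0.043). For injury in females, no member in the authors' deposited tables had an adjusted p under 0.05.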

How the data were processed

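Per the labels, poly-A RNA libraries were made and read on a NextSeq instrument. Per the submitters' processing notes reads were quantified with Salmon 0.13.1 on GRCm38. The authors deposited 24 quantification files with an estimated count, a TPM and an effective length in bases per transcript, not normalized between libraries. The authors also deposited 8 comparison tables with a log2 fold change, its error and an adjusted p-value per gene, made with DESeq2 (version not given in the sources used here).

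For each gene the estimated counts of its transcripts were added and rounded to whole numbers, and both sequencing libraries of sham male tubule replicate 3 were added, which left 23 libraries. A model of the 4 groups in either isolation was made in edgeR 4.0.16 (R 4.3.3; TMM, filterByExpr with minimum count 10 and total 15, quasi-likelihood F-test). Benjamini-Hochberg adjustment ran over all genes tested, 18369 in tubules, 19910 in endothelial isolates and 21206 in both, with calls at an adjusted p under 0.05. Standard errors are the absolute log2 change divided by the square root of F. CPM are scaled by TMM library size. TPM sums leave out transcripts under 300 bases, which removes a 215-base Ren1 transcript among the members. Groups come from the labels. Positions and gene types are those of GENCODE M21, in which 53355 of 53392 gene IDs were found without regard to version. The fits were tested on simulated data.

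The members and gene lists were chosen with earlier results of these data known. The text names each member, up to 6 called genes per list and comparison, the 3 leading markers of the lists shown, and genes most correlated with a member; Akr1b7, Atp11a, Airn and Gm48161 were chosen after their values were seen. Alternatives were RLE scaling, no filter, DESeq2 1.42.0, length offsets, only the groups compared, marker scores as covariates, a replicate block, either sequencing library of the summed sample alone, and leaving out each library. The labels do not say whether endothelial and tubule libraries with the same title number come from the same mouse.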

Additional observations from a re-analysis of the deposited data

How the results depend on the processing

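Among members, the call counts changed as follows. For injury in male tubules, 1 member was called, against 0 with only the compared groups, 2 with the distal marker score as covariate and 0 to 3 without 1 library; it was 0 without replicate 1 or 2 of the injured or 2 or 3 of the sham males, and 3 without injured male replicate 3. Over all genes the distal score called 5240 of 18369, and leaving out injured male replicate 3 called 8203 of 19309. Where the member call was lost, calls over all genes fell too, from 3488 of 18369 to 154 of 16862 with only the compared groups. They were 1168 of 19229 and 953 of 19191 without injured male replicate 1 or 2. Without sham male replicate 2 or 3 they were 1285 of 19347 and 1581 of 19283. For sex in sham tubules the member count was 2, and 0 to 3 without 1 library. For sex in injured tubules it was 3, against 5 with DESeq2 and 2 to 5 without 1 library (5 without injured male replicate 3). Over all genes DESeq2 called 5932 of 16894 there, and leaving out that replicate called 8522 of 19309. For the sex by injury term in tubules the member count was 0, against 3 with the distal score and 0 to 2 without 1 library. Over all genes the distal score called 5405 of 18369. Leaving out injured male replicate 3 called 2 members and 5892 of 19309 genes. For sex in sham endothelial isolates the member count was 0. It was 1 with no filter, 2 with DESeq2, 1 with the proximal tubule score and 0 to 2 without 1 library. After injury it was 0, against 1 with no filter and 1 with DESeq2. Over all genes no filter called 250 of 34154 in sham and 824 of 34154 after injury. DESeq2 called 388 of 19763 in sham and 1177 of 16684 after injury. Between isolations in sham mice the member count was 1, against 2 with no filter, 2 with DESeq2 and 0 to 1 without 1 library. After injury it was 1, and 0 to 3 without 1 library. Over all genes the alternatives between isolations called 1388 to 3592 genes in sham mice (2603 as reported) and 399 to 1895 after injury (995). The other comparisons gave 0 in every alternative. The cause was not tested. No member with an adjusted p under 0.1 changed sign.

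Counts over all genes ranged over the alternatives from 154 to 8203 for injury in male tubules (3488 as reported), 0 to 1167 in female tubules (2), 550 to 2626 for sex in sham tubules (1065), 1710 to 8522 in injured tubules (4271) and 19 to 5892 for the sex by injury term in tubules (157). In endothelial isolates they ranged from 0 to 1217 for injury in males (172), 0 to 33 in females (0), 25 to 388 for sex in sham (86), 4 to 1177 after injury (298) and 0 to 62 for the sex by injury term (0). Between isolations they ranged from 1388 to 3592 in sham (2603), 399 to 1895 after injury (995) and 0 to 24 for the isolation by injury term (0).

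Same-numbered libraries did not deviate together in every pair: of the pairs sharing a replicate number, 2 of 6 in tubules and 1 of 5 in endothelial isolates had a correlation over 0.1 (range -0.31 to 0.42), and of 11 pairs sharing a title number, 5 did (-0.81 to 0.88), all 5 among the 6 injured pairs (all 3 female and 2 of 3 male) and 0 among the 5 sham pairs. With the replicate block, 1 member, Mas1, was called for sex in sham tubules and Ace was lost (adjusted p = 0.056), and the counts in the other sex and injury comparisons were as reported. With the title number as a replicate block, 0 members were called between isolations, in sham and after injury. Low depth limits Mas1, with 0 to 157 reads per library, and Agtr1b, with 0 to 10.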

Other observations

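Within an intron of Agtr1a, on the same strand, GENCODE M21 lists Gm48161 (chromosome 13, 30370359 to 30377183), and the files gave it more reads than Agtr1a in each library. It ran from 93.7 to 663 CPM in endothelial isolates and from 49.9 to 251 CPM in tubules. In male tubules Gm48161 stood at 232, 251 and 49.9 CPM after injury and at 70.6, 81.8 and 73.3 CPM after sham, while Agtr1a stood at 13, 7.68 and 31.4 CPM after injury and at 23.5, 36.3 and 33 CPM after sham. Among tubule libraries the same 2 injured male libraries were the highest for Gm48161 and the lowest for Agtr1a. The injury change of Gm48161 in male tubules was 1.24 ± 0.42 (edgeR adjusted p = 0.061). In endothelial isolates the library with the most Gm48161 was injured male replicate 2, at 663 CPM. It held 34.3 CPM of Agtr1a, between replicates 1 and 3 of its group at 30.6 and 41.6 CPM.

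Ren1 has 2 listed transcripts, of 1592 and 215 bases. The shorter took 1.86 to 4.46% of Ren1 reads as group means, but 41.3 to 85% of the deposited Ren1 TPM. The TPM given for Ren1 in the report is that of the 1592-base transcript alone.

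Agt had as its nearest genes over the 11 endothelial libraries Pbdc1 (r = 0.934), Aldh1a1 (r = 0.932) and Reep6 (r = 0.924). Agtr1a had Fam184a (r = 0.89) and Enpep had Rdh16f1 (r = 0.863) as the nearest, and both had the nucleoside transporter gene Slc28a1 among their 3 nearest. Atp6ap2 had Slc6a19 (r = 0.936), and Ren1 over the 12 tubule libraries had Spred1 (r = 0.901). These are descriptions over libraries that share groups and tubule content.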
